A study of Homo sapiens with 6 samples.

Results

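Expression of 10 glycosyltransferase genes was compared between 2 populations of RKO, an established line of human colon carcinoma cells. Most extend, branch or set the type of N-acetyllactosamine chains, but B3GNT5 makes a glycolipid precursor and B4GAT1 acts on alpha-dystroglycan. The genes are B3GNT2, B3GNT3, B3GNT4, B3GNT5, B3GNT7, B3GNT8, B4GAT1, GCNT2, B3GALT2 and B3GALT5. They were chosen by enzyme family and by having a probe set whose RefSeq accession matched the symbol, and each was read by 1 probe set, so they make up 10 of the 1259 probe sets and 10 of the 927 named genes. RKO C2 is a clonal population of the line. RKO C2 F3 was sorted from it by flow cytometry for low u-PAR, the urokinase receptor, and the labels call it clonal in one place and only a population in another. No treatment, time or engineered allele is given for either. Each population has 3 arrays, numbered 1 to 3 in both, and the study asked which glycosylation enzyme is deficient in cells whose u-PAR does not mature fully.

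N-acetyllactosamine is a disaccharide of galactose and N-acetylglucosamine. Chains of it, called poly-N-acetyllactosamine, are built on N-glycans, O-glycans and glycolipids by enzymes of the B3GNT family, which add N-acetylglucosamine to galactose, in alternation with galactosyltransferases of the B4GALT family. Some B3GALT enzymes add galactose in a different linkage and so make type 1 chains, the backbone of the Lewis a antigen. GCNT2 turns linear chains (i antigen) into branched ones (I antigen). The chains carry sialic acid, fucose and sulfate caps and are bound by galectins, and their length affects how large a mature glycoprotein appears.

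None of the 10 genes passed an adjusted p of 0.05 in limma, a linear model with variances stabilised across probe sets, in either direction. Among all 1259 probe sets 1 passed (0.0794%), that of PIGB, a gene of glycosylphosphatidylinositol anchor synthesis. The smallest adjusted p among the 10 was 0.89, without a block for the array numbers, and 0.52 with it, both for B3GNT5. In such bulk RNA, a smaller share of expressing cells and less transcript per cell cannot be told apart. The log2 changes, F3 minus C2, lay between -0.17 and 0.12. Of these, 7 were negative and 3 positive, against 6 and 4 after median centring of the arrays and 8 and 2 after a repeated quantile normalization. Their median was -0.025, beside -0.0064 over all probe sets, and their median absolute change was 0.069 beside 0.047. At an unadjusted limma p under 0.05 there were 3 of the 10 (B3GNT5, B3GNT8 and B4GAT1), where the table as a whole had 5.40%. With the array number as a block, none of the 10 passed (0.159% of the table did), and 2, B3GNT5 and B4GAT1, had an unadjusted p under 0.05 (8.02%). B3GNT5, B3GNT8 and B4GAT1 were also the genes whose arrays did not overlap between the populations, where the table had 10.3%. The genes were chosen with earlier results of these data known, so these shares describe the list and were not tested.

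**Figure D1:**
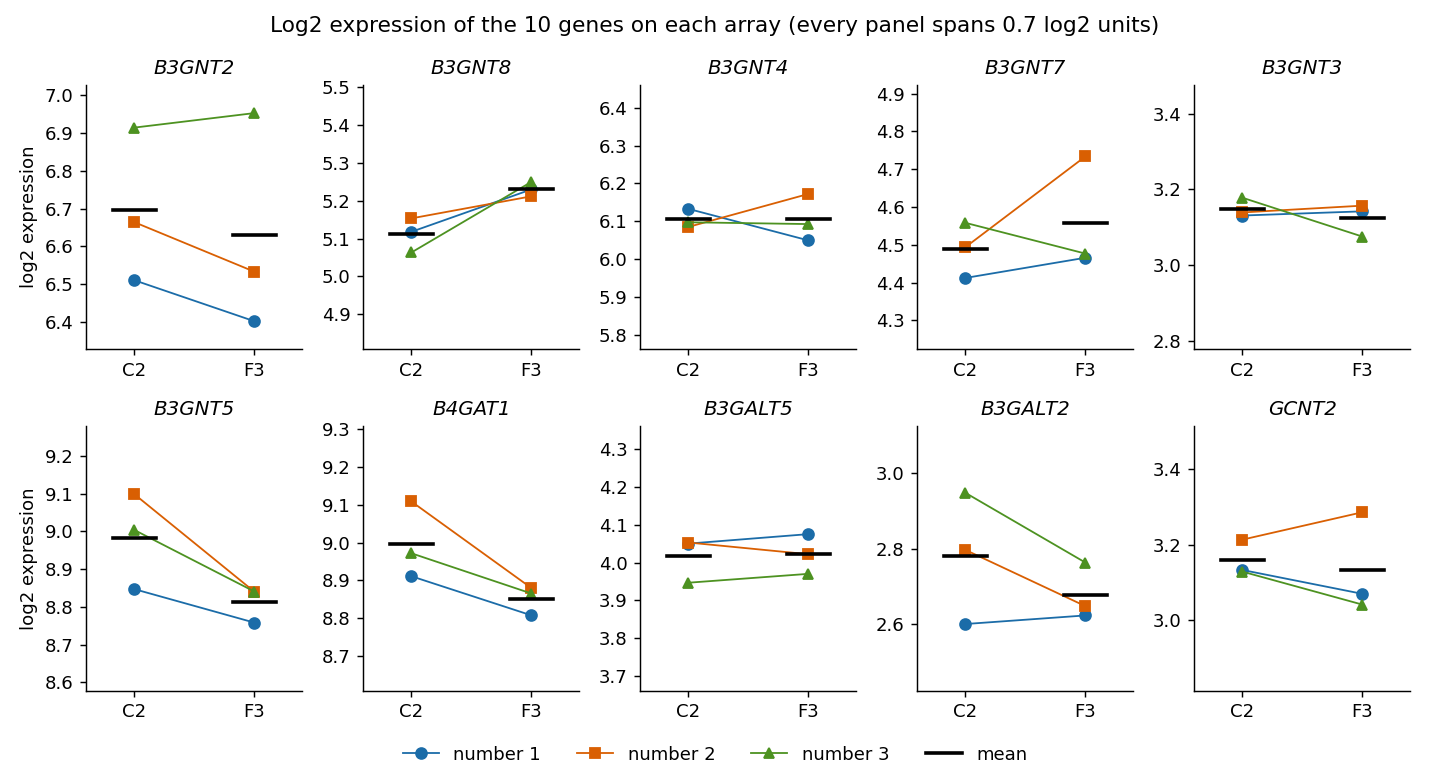
Log2 expression (vertical axis, every panel 0.7 log2 units high) of the 10 genes on the C2 and F3 arrays; points are single arrays, lines join arrays of the same number and black bars are means of 3 arrays. The F3 arrays lie below the C2 arrays for B3GNT5 and B4GAT1 and above them for B3GNT8, and number 3 is high in both populations for B3GNT2.

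Median log2 expression per array ranged from 5.48 to 5.51, and the correlation of 2 arrays over all probe sets was 0.9981 to 0.9992. Quantile normalization of the deposited values brings array medians together, and differences between probe sets dominate such correlations. Neither measure can therefore show that the arrays were alike in quality. Of the 11 colon epithelium markers listed, 3 were measured (LGALS4, MUC1 and MUC2). Without a detection call their presence could not be judged, so the labelled tissue could not be checked further. Of 9 leukocyte and 9 fibroblast or endothelial markers, 8 and 8 were measured and none passed. Their summed linear levels overlapped between populations, at 112 to 114 in C2 and 112 to 119 in F3 for leukocyte genes, and at 232 to 247 and 236 to 249 for the others. Such sums follow their brightest probe sets, and 5 of 8 and 4 of 8 probe sets averaged under 4 on the log2 scale. They can also hide opposed log2 changes, such as 0.23 for CD72 and -0.21 for KLRC1 among the leukocyte genes. A probe set's level also depends on its probes, so log2 levels are not compared between genes here.

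The chain-extending enzymes of glycoproteins come first. B3GNT2 is the main enzyme that extends poly-N-acetyllactosamine, and its probe set was NM_006577.5_psr1_at. Its log2 expression was 6.51, 6.66 and 6.91 on C2 arrays 1, 2 and 3, and 6.40, 6.53 and 6.95 on F3 arrays 1, 2 and 3. The populations overlapped fully, and in both the array numbered 3 was the highest. The log2 change was -0.067 (SE 0.15, 95% interval -0.41 to 0.27, limma adjusted p = 0.998). Its sign depended on the arrays: without C2 replicate 3 the change was 0.042, without F3 replicate 1 it was 0.047, and without F3 replicate 3 it was -0.23. It was -0.16 without C2 replicate 1 and -0.019 without F3 replicate 2.

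B3GNT2 varied far more with the array number than with the population. The means of the 2 arrays of a number were 6.46, 6.60 and 6.93 for numbers 1, 2 and 3, a spread of 0.48 on the log2 scale. This spread was larger than that of 99.4% of the 1259 probe sets, whose median was 0.114. The 3 differences within a number were -0.11, -0.13 and 0.038. With the number as a block in the fit, the SE was 0.056 in place of 0.15 and the interval -0.20 to 0.067, with an adjusted p of 0.81. The labels call the numbers replicates and give same-numbered arrays of C2 and F3 a shared title suffix. They do not say what else such arrays share, and the part of any shared handling in this spread was not tested.

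**Figure D2:**
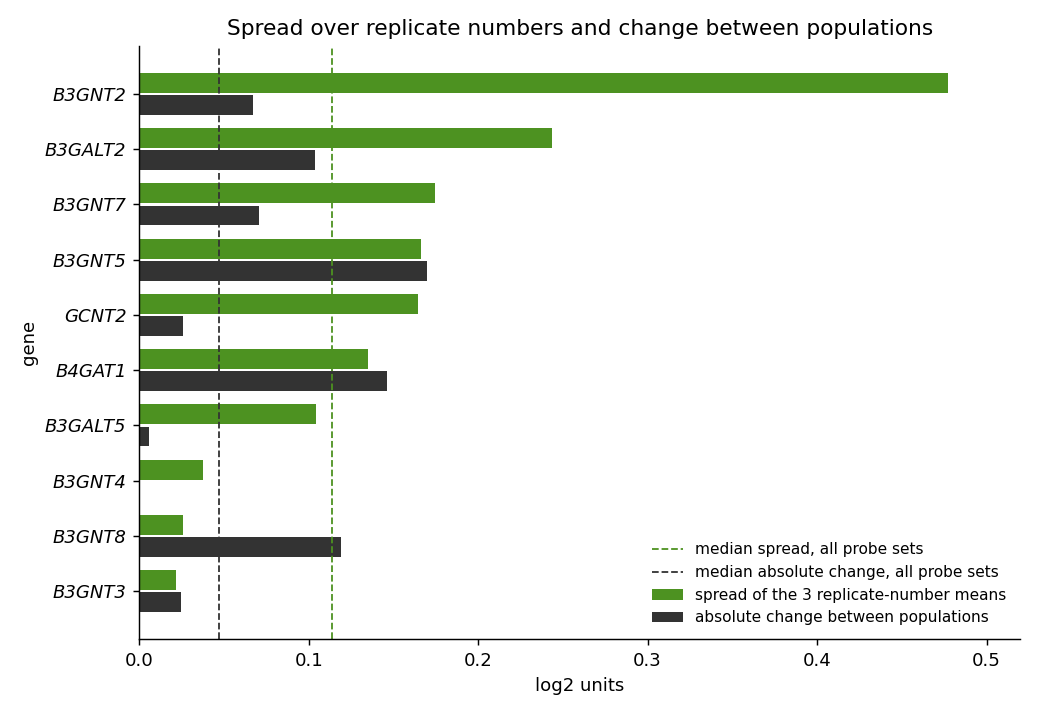
For each gene, the spread of the 3 replicate-number means (green, highest minus lowest, each mean over 1 C2 and 1 F3 array) and the absolute change between populations (black), in log2 units; dashed lines are medians over 1259 probe sets. The spread of B3GNT2, 0.48, is the longest bar, while its change is 0.067 in size; a spread of 3 means tends to exceed a difference of 2 means, so each bar is to be read against the dashed line of its own colour.

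B3GNT8 extends chains on multiantennary N-glycans, and its product binds B3GNT2 and raises the activity of that enzyme. Its log2 expression was 5.12, 5.15 and 5.06 in C2 and 5.23, 5.21 and 5.25 in F3, in the order of the numbers. Every F3 array was above every C2 array, as for 3.81% of all probe sets. The change was 0.12 (SE 0.05, 95% interval 0.0027 to 0.24), or 1.09-fold, with a limma p of 0.046 and an adjusted p of 0.90. With the replicate block the interval was -0.0048 to 0.24 and the adjusted p 0.66. All 3 differences within a number were positive, as for 12.1% of probe sets, at 0.11, 0.059 and 0.19. Its spread over array numbers was only 0.026, so it varied little with the number, while its partner B3GNT2 varied most. Whether the changes of these 2 genes differed was not tested.

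B3GNT4, a further extending enzyme, showed the smallest change of the 10. Its arrays read 6.13, 6.08 and 6.10 in C2 and 6.05, 6.17 and 6.09 in F3, and the change was -0.00031 with an interval of -0.12 to 0.12. That interval leaves room for 1.09-fold in either direction.

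B3GNT7 acts on sulfated chains such as keratan sulfate. It read 4.41, 4.49 and 4.56 in C2 and 4.47, 4.73 and 4.48 in F3, where F3 array 2 stood above the other 5 arrays. The change was 0.071 (95% interval -0.12 to 0.26), with -0.017 without F3 replicate 2, 0.033 without C2 replicate 1 and 0.12 without F3 replicate 1. Its probe set carries the suffix _s_at, which in Affymetrix naming marks probes shared by several transcripts, and so does that of GCNT2.

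B3GNT3 extends core 1 O-glycans and takes part in making L-selectin ligands. It read 3.13, 3.14 and 3.18 in C2 and 3.14, 3.16 and 3.08 in F3. The change was -0.025, with an interval of -0.14 to 0.092. The values of B3GNT3, B3GALT2 and GCNT2 averaged under 4 on the log2 scale; at such low readings the RMA summary shrinks changes, so a change in transcript level could be larger than the values show.

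The next pair of enzymes work outside the chains of N-glycans. B3GNT5 (probe set NM_032047.4_psr1_at) makes lactotriaosylceramide, the first step of lacto- and neolacto-series glycolipids. Its log2 expression was 8.85, 9.10 and 9.004 in C2 and 8.76, 8.84 and 8.84 in F3. All F3 values were below all C2 values, as for 6.51% of the table, although the closest arrays were less than 0.01 apart (8.847 and 8.841). Relative to C2 the mean was 1.13-fold lower in F3 (log2 change -0.17, SE 0.07, 95% interval -0.33 to -0.0057), with a limma p of 0.044 and an adjusted p of 0.89. The differences within a number were -0.089, -0.26 and -0.16. The blocked fit narrowed the interval to -0.30 to -0.039, with an unadjusted p of 0.019, and the adjusted p stayed at 0.52.

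B4GAT1 (probe set NM_006876.2_psr1_at) was first described as the i-antigen N-acetylglucosaminyltransferase and is known to add glucuronic acid to the O-mannosyl glycan of alpha-dystroglycan. It read 8.91, 9.11 and 8.97 in C2 and 8.81, 8.88 and 8.87 in F3, again with all F3 arrays lower. The change was -0.15 (SE 0.06, 95% interval -0.29 to -0.00014), 1.11-fold lower, with a limma p of 0.050 and an adjusted p of 0.93. With the block the unadjusted p was 0.029 and the adjusted p 0.54. Differences within a number were -0.10, -0.23 and -0.11.

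B3GNT5 and B4GAT1 had the same highest and lowest arrays. C2 array 2 was the highest and F3 array 1 the lowest of the 6 for both, and number 2 gave the largest difference for both. This order is not particular to the pair: HK1, PKD2 and MAN2B1, among others, had the same highest and lowest arrays. In the fit with array weights, C2 array 2 and F3 array 1 had the lowest weights, 0.756 and 0.755. The changes of B3GNT5 and B4GAT1 were -0.15 and -0.13 in that fit. Without C2 replicate 2 they were -0.11 and -0.091, so that array carried a part of each. Both genes were lower in F3 in all 3 numbers, as were 17.8% of all probe sets.

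Of the type 1 chain enzymes, B3GALT5, the principal galactosyltransferase of type 1 chains in colon and other digestive epithelia, read 4.05, 4.05 and 3.95 in C2 and 4.08, 4.02 and 3.97 in F3. The array numbered 3 was the lowest in both populations, the reverse of B3GNT2. The change was 0.0059, with an interval of -0.12 to 0.14, which leaves room for 1.09-fold lower to 1.10-fold higher deposited values. Those values averaged 4.02, so the limit given above for readings under 4 may hold here too.

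B3GALT2, a beta-1,3-galactosyltransferase of the same family, read 2.60, 2.80 and 2.95 in C2 and 2.62, 2.65 and 2.76 in F3. The populations overlapped, and in both the array numbered 3 was the highest and that numbered 1 the lowest. The change was -0.10 (95% interval -0.31 to 0.10; adjusted p = 0.97), with -0.021 without C2 replicate 3 and -0.19 without C2 replicate 1. Its spread over array numbers, 0.24, was larger than that of 90.1% of probe sets.

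GCNT2, the I-branching enzyme, read 3.13, 3.21 and 3.13 in C2 and 3.07, 3.29 and 3.04 in F3. Array 2 was the highest in both populations and the ranges overlapped. The change was -0.026 (95% interval -0.19 to 0.14). GCNT2 makes several isoforms from alternative first exons, and the labels do not say which of them the probe set covers.

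Read as bounds, the unblocked 95% intervals of the 10 genes reached at most 1.33-fold lower and 1.21-fold higher in F3, both for B3GNT2. The next widest on the low side were B3GNT5 at 1.26-fold and B3GALT2 at 1.24-fold. For B3GNT8, B3GNT4, B3GNT3, B3GALT5 and GCNT2 neither bound passed 1.18-fold. In the blocked fit, which takes the pairs of arrays into account, the order differed: B3GNT5 reached furthest on the low side, at 1.23-fold, and B3GNT8 on the high side, at 1.18-fold, while B3GNT2 spanned 1.15-fold lower to 1.05-fold higher. Both sets of bounds hold for the deposited values, in which dim probe sets are compressed, and are not corrected for the number of genes.

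**Figure D3:**
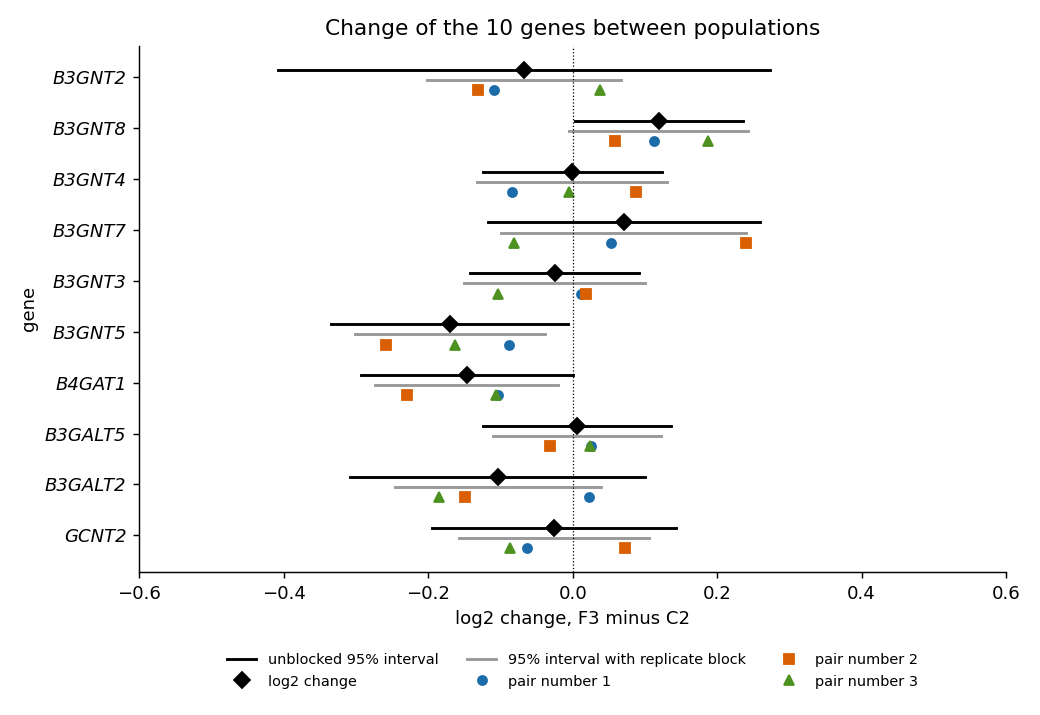
Log2 change, F3 minus C2, of the 10 genes with its 95% interval in the unblocked fit (black) and with the replicate block (grey), above the 3 differences between same-numbered arrays (coloured points). The unblocked intervals of B3GNT8, B3GNT5 and B4GAT1 exclude 0 before adjustment, and the block shortens that of B3GNT2 most, from -0.41 to 0.27 down to -0.20 to 0.067.

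Related genes were listed by enzyme family or function. The groups are B4GALT enzymes, other beta3 and beta6 family enzymes, N-glycan branching enzymes, genes for caps and sulfation, and galectins. Whole families were taken, so not every listed gene acts on poly-N-acetyllactosamine. Of the 46 genes listed, 42 were measured by 44 probe sets. None passed in either direction; 28 probe sets were negative and 16 positive, with a median change of -0.023, beside 688 and 571 over all 1259. Of the 44, 2 had an unadjusted limma p under 0.05, near the 5.40% of the table. The 7 B4GALT galactosyltransferases lay between -0.078 and 0.039, with B4GALT3 at -0.078 (95% interval -0.22 to 0.066, and -0.029 without C2 replicate 2) and B4GALT1, the main N-acetyllactosamine galactosyltransferase, at -0.069 (-0.25 to 0.11, and -0.0065 without C2 replicate 2). The other beta3 and beta6 family had 9 measured genes. Of these GCNT3, a branching enzyme of mucin-type O-glycans, was at -0.14 (limma adjusted p = 0.87) and B3GALT1, a type 1 chain enzyme outside the 10, at 0.13 (0.062 without F3 replicate 1). The B3GALT1 values averaged 3.35, so the limit given above for readings under 4 holds for it, and the filter on dim probe sets removed it. Of the 4 N-glycan branching genes, MGAT5B was at 0.12 and MGAT4B at 0.072. Without F3 replicate 2 they were at 0.057 and 0.046, and without F3 replicate 1 MGAT5B was at 0.19.

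The 16 genes for caps and sulfation, read by 17 probe sets, lay between -0.22 for ST6GAL1, the alpha2,6-sialyltransferase of N-glycans, and 0.089, with FUT4, an alpha1,3-fucosyltransferase, at -0.080. Without C2 replicate 2 ST6GAL1 was at -0.082. Among the 6 galectins, LGALS3, a lectin that binds poly-N-acetyllactosamine, was at -0.40 (SE 0.06, adjusted p = 0.095, 0.066 with the block), and LGALS9 was at 0.082. With 1 array left out, the LGALS3 change stayed between -0.43 and -0.36, with limma adjusted p from 0.17 to 0.41. After a repeated quantile normalization its limma adjusted p was 0.31. LGALS3 came nearest to the threshold of the listed genes, and none of the 10 genes had a change of its size.

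**Figure D4:**
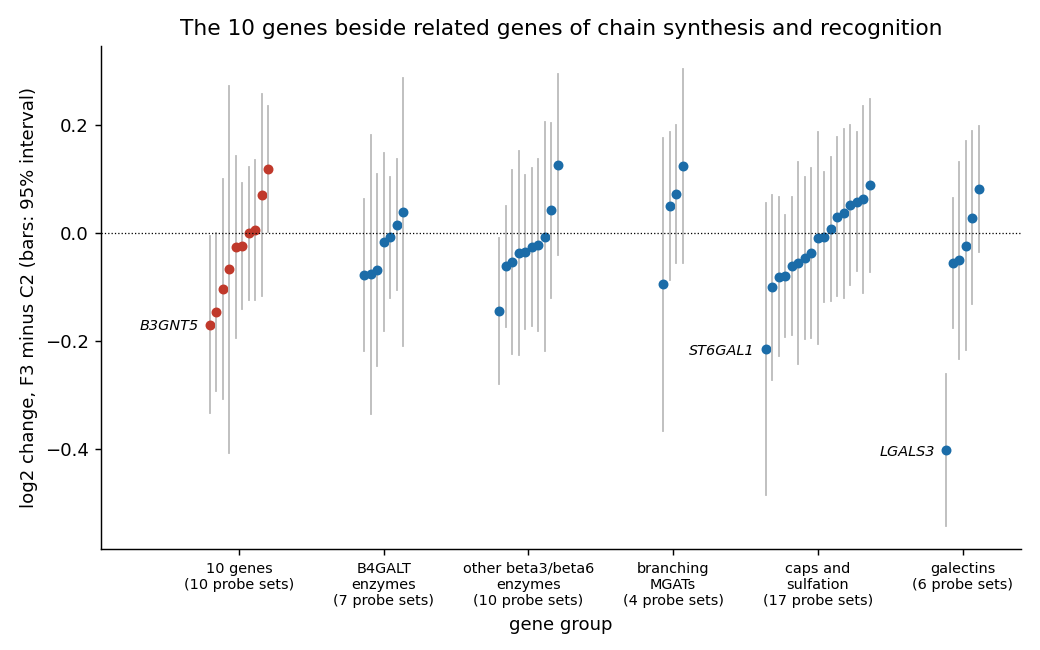
Log2 change, F3 minus C2, with 95% intervals for the 10 genes (red) and for 44 probe sets of related genes (blue), sorted within each group. All red points lie between -0.17 and 0.12, and LGALS3 at -0.40 is the lowest of all.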

How the data were processed

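Each value in the deposited table is the log2 expression of a probe set on 1 array; biotin-labelled cRNA was made from Trizol-extracted RNA, per the labels' protocols, and summarised with RMA (background correction, quantile normalization, probe summary), per the submitters' processing notes. The RMA version, the genome build and which arrays were normalized together are not stated there. No column was left out, and no detection call or probe sequence was used. RefSeq accessions without version named 1043 of 1259 probe sets (RefSeq table of GRCh38); the other 216 stayed in the tests.

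F3 was compared with C2 in limma 3.58.1 (R 4.3.3; lmFit and eBayes). Tests were two-sided, and p-values were adjusted by Benjamini-Hochberg across the full table. The limma script was checked on simulated data with known changes. An exact permutation test of 3 against 3 arrays cannot go below 0.10. Separate cultures are not stated, so p-values measure a spread that may be technical. Deviations of same-numbered arrays correlated with r = 0.52, 0.18 and 0.26 for numbers 1, 2 and 3. Arrays of different numbers gave -0.38 to 0.15, the highest for C2 array 2 with F3 array 3, near the value for number 2. Numbers were therefore taken as a possible pairing, which rests on these data and on a shared label suffix. The main fit held the population only, and the number entered as a block in an alternative fit. Members and lists were chosen with earlier results of these data known. The genes named are the 10 enzymes, any probe set past the threshold and, in each of 5 related groups, the 2 genes with the smallest p. Alternatives were a replicate block, 2 scalings, a filter on dim probe sets, other variance models and weights, another threshold, an ordinary two-sample test, gene means and arrays left out; leaving out both arrays of a number was added after the data were seen. The number of arrays limits the precision.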

Additional observations from a re-analysis of the deposited data

How the results depend on the processing

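None of the 10 genes passed under any alternative run, with adjusted p from 0.52 to 0.999 in the limma fits. B3GNT5, B4GAT1, B3GALT2 and B3GNT8 kept their sign in every fit that held them (of the 10, the filter on dim probe sets removed B3GALT2, B3GNT3 and GCNT2). Their sizes were less stable: a repeated quantile normalization took B4GAT1 from -0.15 to -0.094. In that run B3GNT5 was at -0.17, B3GALT2 at -0.095 and B3GNT8 at 0.10. The replicate block gave 2 probe sets past the threshold over the table in place of 1 and changed no call among the 10 genes or the related list. An adjusted p under 0.10 gave 2 over the table and 1 in the related list (LGALS3), the ordinary two-sample test gave 0 over the table, and leaving out arrays gave 0 to 2. Some changes turned sign, and the largest of these in size was that of B3GNT7 at 0.071. Median centring moves all changes by the same amount, and the cause of the other turns was not tested. B3GNT4 was at 0.015 with median centring and 0.012 with array weights, GCNT2 at 0.010 with array weights, and B3GALT5 at -0.023 with quantile normalization. Leaving out 1 array, or both of a number (an alternative chosen after seeing the data), gave -0.23 to 0.047 for B3GNT2, -0.044 to 0.041 for B3GNT4, -0.017 to 0.15 for B3GNT7, -0.046 to 0.015 for B3GNT3, -0.029 to 0.032 for B3GALT5, -0.10 to 0.020 for GCNT2, -0.19 to -0.021 for B3GALT2 and -0.13 to 0.014 for B4GALT1. The median over the 10 genes ran from -0.045 to 0.0030.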
